A study of Arabidopsis thaliana with 24 samples.

Results

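STZ (AT1G27730, also called ZAT10 and salt tolerance zinc finger) is a protein-coding gene of Arabidopsis thaliana, and 1 of the 576 probes on the array is assigned to it. This probe, number 62, was taken by its gene assignment in the probe table, not by its values. Transcript levels were measured on 24 spotted arrays of 1 colour, in 8 groups of 3. Seedlings were 10 days old and had been moved to fresh liquid medium 48 h before treatment. The groups were wild-type Col and the mutant mpk11, which is in the Col background and carries the T-DNA insertion SALK049352 at MPK11, a MAP kinase gene. Each genotype received water (mock) or 1 µM flg22, and RNA labelled as coming from leaves was taken at 30 min or 3 h. The mutant is a single insertion line, and its MPK11 transcript was not analysed here, so the genotype labels were not checked against it.

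STZ is a zinc-finger protein of the plant nucleus with a repression motif of the EAR type, and it is known mainly as a repressor that acts in responses to salt, cold, drought and excess light. Its transcript is known to accumulate quickly after many stresses. A fragment of bacterial flagellin, the peptide flg22, is bound by the receptor kinase FLS2. Binding starts calcium influx and a MAP kinase cascade, in which MPK3, MPK4, MPK6 and MPK11 are activated. In Arabidopsis the STZ protein is a known substrate of MPK3 and MPK6.

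All values are the authors' deposited log values, taken as log2 because the base is not stated, and no linear fold is given for that reason. The median of all probes was 3.34 to 3.76 on mock arrays but 4.02 to 4.17 on treated ones. The flg22 responses of STZ at each time are therefore also given with each array centred on its median. Values of other genes are in the deposited scaling unless another is stated. None of the 11 leaf markers or 6 root markers listed for a check of the tissue was among the 181 probes with a gene name, so the tissue label was not checked. Arrays with the same replicate number in the labels are called a set here. In 6 of the 8 groups the lowest STZ value came from set 2, which also held the lowest array median in 5 groups, and both coincided in 4. In whole tissue, a change per cell and a change in the number of cells with the transcript cannot be told apart.

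STZ lay at 3 separate levels: low in all mock arrays, intermediate 3 h after flg22 and high 30 min after flg22. Over the 12 mock arrays it ran from 1.94 to 2.76 with a median of 2.46. In the 6 arrays of 3 h flg22 it ran from 4.41 to 5.14 with a median of 4.81. In the 6 arrays of 30 min flg22 it ran from 6.83 to 7.70 with a median of 7.20. These 3 ranges do not overlap, whereas wild type and mpk11 overlap within each of them.

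In wild type at 30 min STZ read 2.45, 2.47 and 2.68 in mock, and the flg22 arrays read 7.70, 6.91 and 7.17 (sets 1 to 3). At 3 h in wild type it read 2.73, 2.36 and 2.76 in mock, and the flg22 arrays read 4.82, 4.81 and 4.78. In each case every treated array lay above every mock array. In mpk11 at 30 min STZ read 2.25, 1.94 and 2.60 in mock, and the flg22 arrays read 7.34, 6.83 and 7.23. At 3 h in mpk11 it read 2.37, 2.23 and 2.48 in mock, and the flg22 arrays read 4.81, 4.41 and 5.14. The mutant therefore showed the same separation of treated and mock arrays as wild type.

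**Figure D1:**
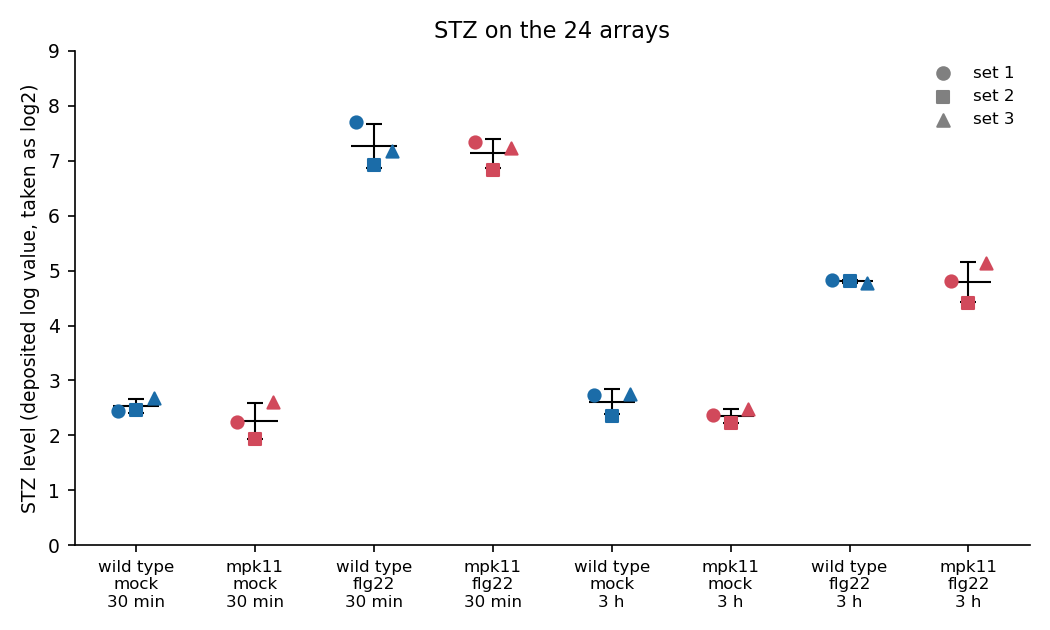
STZ level (deposited log value, taken as log2) on each of the 24 arrays by time, treatment and genotype. Blue symbols are wild type, red symbols mpk11, symbol shapes are sets 1 to 3, and black bars are the mean ± SD of 3 arrays. Mock arrays sit between 1.94 and 2.76, 3 h flg22 arrays between 4.41 and 5.14, and 30 min flg22 arrays between 6.83 and 7.70.

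Ordered by mean, the groups ran from mpk11 mock at 30 min (2.26 ± 0.33, SD, n = 3) through mpk11 mock at 3 h (2.36 ± 0.13) and wild-type mock at 30 min (2.53 ± 0.13) to wild-type mock at 3 h (2.61 ± 0.22). Neighbours among these 4 groups were 0.085 to 0.17 apart and their arrays overlapped. The 3 h flg22 groups came next, mpk11 at 4.78 ± 0.36 and wild type at 4.80 ± 0.02, with overlapping arrays. The 30 min flg22 groups were highest, mpk11 at 7.13 ± 0.27 and wild type at 7.26 ± 0.40, again with overlapping arrays. The gap from mock to the 3 h flg22 groups was 2.17, and that from these to the 30 min flg22 groups was 2.33, each larger than any SD within a group.

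The first comparison asks how STZ responds to flg22. STZ rose in wild type by 4.73 at 30 min (95% interval 4.30 to 5.16; limma adjusted p = 1.49e-14) and by 2.19 at 3 h (95% interval 1.76 to 2.62; limma adjusted p = 6.77e-09). At 30 min 20.3% of the 576 probes were called higher (limma, adjusted p below 0.05), and STZ had the second largest rise, after the unnamed probe 125 (4.97). At 3 h 31.9% were called higher, and STZ ranked 38 of 576. Among the 181 probes with a gene name it ranked 1 at 30 min and 13 at 3 h. The median change of all probes was 0.056 at 30 min and 0.14 at 3 h.

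In mpk11 STZ rose by 4.87 at 30 min (95% interval 4.44 to 5.30; limma adjusted p = 8.21e-15) and by 2.42 at 3 h (95% interval 1.99 to 2.85; limma adjusted p = 1.09e-09). Here 20.5% of probes were called higher at 30 min and 34.4% at 3 h. STZ ranked 3 and 35 of all probes, and 2 and 13 of the named ones. Set by set, the rise in wild type was 5.26, 4.45 and 4.49 at 30 min and 2.09, 2.45 and 2.03 at 3 h. In mpk11 it was 5.09, 4.89 and 4.63 at 30 min and 2.44, 2.18 and 2.65 at 3 h. The smallest rise at 30 min was thus larger than the largest at 3 h in both genotypes.

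Centring each array on its median moved the wild-type rises to 4.26 and 1.66 and the mpk11 rises to 4.37 and 1.80, and all 4 still passed. Under that scaling 15.1% and 21.4% of probes in wild type, at 30 min and 3 h, were called higher and 43.9% and 44.4% lower. In the deposited scaling 0.174% and 6.42% were called lower.

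The next comparison asks whether the response changed between the times. The STZ response was smaller at 3 h than at 30 min, by -2.54 in wild type (SE 0.29; limma adjusted p = 5.40e-07) and by -2.45 in mpk11 (SE 0.29; limma adjusted p = 8.83e-07). In wild type 11.5% of probes were called smaller and 16.1% larger at 3 h, and in mpk11 12.2% and 15.6%. By size of the loss STZ ranked 4 in wild type and 7 in mpk11 of 576, behind the EF-hand calcium-binding protein gene AT4G27280 (-3.57 and -4.06) in both.

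On the log scale 46.7% ± 7.75 of the 30 min rise remained at 3 h in wild type (SD over sets, n = 3; 39.8%, 55.1% and 45.1%). In mpk11 it was 49.9% ± 6.58 (48.0%, 44.5% and 57.3%), so the genotypes overlap. All shares left, here and below, were computed in the deposited scaling only. For STZ the rises after median centring given above leave a smaller share in both genotypes. For the medians and counts that follow, the share was taken from the group means, which gives STZ 46.3% in wild type and 49.8% in mpk11. Among the 117 probes called higher at 30 min in wild type the median share left was 72.8%, and 39 had less left than STZ. Among the 118 such probes in mpk11 the median was 75.4%, and 44 had less left. These probes were picked by their value at 30 min, which tends to lower their shares.

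Within treatments, with flg22 STZ fell from 30 min to 3 h by 2.46 in wild type (SE 0.21; limma adjusted p = 1.55e-09) and by 2.35 in mpk11 (SE 0.21; limma adjusted p = 3.10e-09), where 22.2% and 20.3% of probes were called lower. In mock STZ differed between the times by 0.085 in wild type (95% interval -0.34 to 0.51; limma adjusted p = 0.869) and by 0.098 in mpk11 (95% interval -0.33 to 0.53; limma adjusted p = 0.819). In mock 10.9% and 11.8% of probes passed in either direction.

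**Figure D2:**
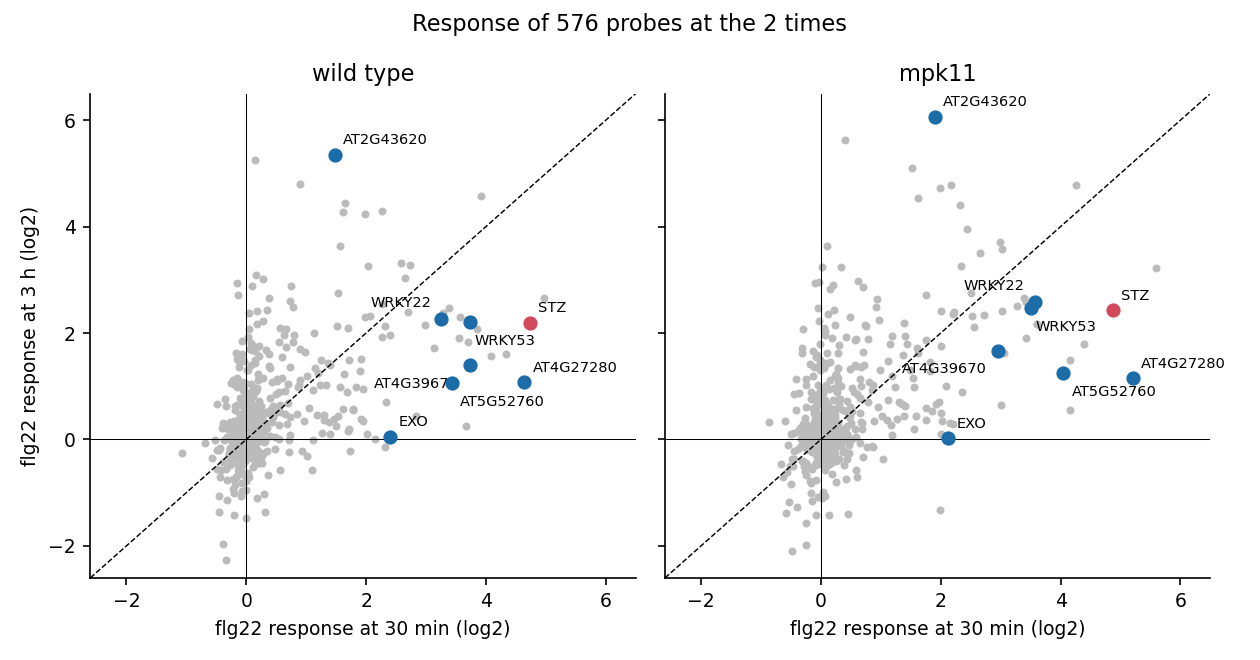
flg22 response (flg22 less mock, log2) at 30 min on the x axis and at 3 h on the y axis for each of the 576 probes, in wild type and mpk11. STZ is red, and WRKY53, WRKY22, AT4G39670, AT5G52760, AT4G27280, EXO and AT2G43620 are blue. All other probes are grey, and the dashed line marks equal responses. STZ sits at 4.73 and 2.19 in wild type and at 4.87 and 2.42 in mpk11, below the line, while the chitinase family gene AT2G43620 sits above it.

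The comparison of genotypes asks whether STZ differs in mpk11. No difference passed. In mock STZ differed, mpk11 less wild type, by -0.27 at 30 min (95% interval -0.69 to 0.16; limma adjusted p = 0.753) and by -0.25 at 3 h (95% interval -0.68 to 0.18; limma adjusted p = 0.987). With flg22 it differed by -0.13 at 30 min (95% interval -0.56 to 0.30; limma adjusted p = 0.990) and by -0.019 at 3 h (95% interval -0.45 to 0.41; limma adjusted p = 0.998). The interval end farthest from 0 was -0.69, in mock at 30 min. The share of probes called was 0% in each of the 4 comparisons, and an unadjusted limma p under 0.05 was seen for 50 probes at 30 min and 6 at 3 h in mock, and for 24 and 8 after flg22.

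The response itself differed between genotypes, mpk11 less wild type, by 0.14 at 30 min (95% interval -0.47 to 0.75; limma adjusted p = 0.999) and by 0.23 at 3 h (95% interval -0.37 to 0.84; limma adjusted p = 0.995). Here 0% of probes passed, with 7 and 8 under an unadjusted limma p of 0.05. Over the sets the difference in response ran from -0.17 to 0.44 at 30 min and from -0.27 to 0.63 at 3 h. Both spans include 0.

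Over all 4 conditions STZ differed by -0.17 (95% interval -0.38 to 0.048; limma adjusted p = 0.763), where 0% of probes passed and 49 had an unadjusted limma p under 0.05. Taken as same-set pairs of arrays, mpk11 was lower in 10 of 12 pairs (mean -0.17 ± 0.24, SD). This included all 6 mock pairs (mean -0.26) and 4 of the 6 flg22 pairs (mean -0.073). An exact two-sided sign-flip test over the 12 pairs gave p = 0.0361 for STZ alone. It treats the pairs as independent, although arrays of one set were correlated. Set by set the difference over all 4 conditions was -0.23, -0.28 and 0.018 (sets 1 to 3). Over all 576 probes the same exact test gave STZ an adjusted p of 0.302, so the difference did not pass. Of all probes 5.38% were lower in all 6 mock pairs and 8.85% in at least 10 of the 12. After median centring STZ was lower in 9 of 12 pairs and in 5 of the 6 mock pairs, with an exact sign-flip p of 0.0757. Under that scaling 4.86% of all probes were lower in at least 10 of 12 pairs and 1.39% in all 6 mock pairs. STZ met neither of these stricter cuts, and the share of probes at its own counts was not computed.

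**Figure D3:**
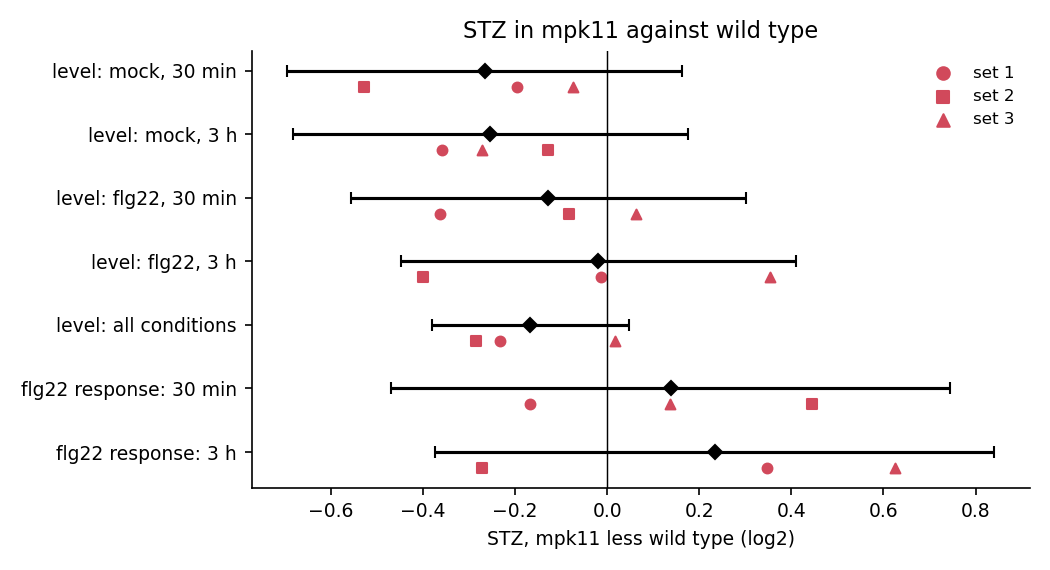
STZ in mpk11 less wild type (log2) for the level in each condition, over all conditions, and for the flg22 response at each time. Black diamonds and bars are the limma difference with its 95% interval, and red symbols are the differences within sets 1 to 3. Every interval includes 0, and all 6 mock differences within sets are below 0.

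Probes with a profile like that of STZ were ranked by Pearson's r over the 24 arrays, a description without a test, since all arrays share the same treatments. The median r of the other 575 probes was 0.16, and 45 probes, 13 of them named, were above 0.9. Of the 15 probes with the highest r, 4 have a gene name, and the 15th (0.965) and 16th (0.964) hardly differ. The closest was the unnamed probe 539 (r = 0.992), followed by the unnamed probes 486 (0.990), 227 (0.990), 167 (0.989) and 125 (0.988). All 15 had a larger flg22 response at 30 min than at 3 h in both genotypes, which their selection by r with STZ largely sets. Of all probes called higher at 30 min, 72 of 117 in wild type and 73 of 118 in mpk11 also had the larger response then. These called probes were picked by their value at 30 min, which in part favours a larger response then. The responses of the 15 probes of highest r ran in wild type from 1.56 to 4.97 at 30 min (median 3.57) and from 0.99 to 2.66 at 3 h (median 1.90).

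Among named genes WRKY53, a transcription factor of defence and leaf senescence, was most like STZ (r = 0.985, Spearman's rho = 0.876). It went from 2.24 ± 0.11 in mock to 5.98 ± 0.05 with flg22 at 30 min in wild type and stood at 4.38 ± 0.13 with flg22 at 3 h (SD, n = 3). Of its wild-type rise 59.4% ± 8.13 was left at 3 h, and in mpk11 70.7% ± 7.54. AT4G39670 followed (r = 0.979, rho = 0.865), with responses of 3.73 and 1.39 in wild type and 2.96 and 1.67 in mpk11.

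AT5G52760, which encodes a heavy-metal-associated domain protein, was next (r = 0.972, rho = 0.957). Its responses were 3.43 and 1.06 in wild type and 4.05 and 1.24 in mpk11, and it kept 31.1% ± 2.72 and 30.5% ± 6.57 of its rise. WRKY22, known from Arabidopsis as a transcription factor downstream of the flagellin MAP kinase cascade, followed (r = 0.970, rho = 0.837). It kept 69.5% ± 5.45 of its rise in wild type and 72.4% ± 8.50 in mpk11. These genes were picked by r with STZ over these arrays, which favours its order of mock, 3 h flg22, 30 min flg22. They differ in how much of the rise was left.

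The next 6 named genes were AT2G28400 (r = 0.945), AT1G05340 (0.944), the EF-hand gene AT2G41410 (0.935), AT4G27280 (0.924), AT2G18210 (0.923) and AT2G26190 (0.916). The 11th, AT1G27100, also had 0.916. With each array centred on its median, r of the 6 was 0.876, 0.896, 0.918, 0.908, 0.702 and 0.796, in the order above. Their courses in time differed. AT2G41410 rose by 1.39 at both times in wild type, whereas AT4G27280 went from 4.64 to 1.08 and AT2G26190 from 1.71 to 0.20. The lowest r among named genes belonged to AT5G60390, an EF1A translation factor gene (-0.58), the peroxidase gene AT2G37130 (-0.57) and the beta-tubulin gene TUB6 (-0.50).

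Over the 12 flg22 arrays r of the 15 probes ran from 0.907 to 0.992 (median 0.971), a span that holds the fall of STZ between the times. Within 1 time it was lower, from -0.23 to 0.95 over the 6 arrays of 30 min flg22 (median 0.49, against 0.20 for all probes) and from -0.97 to 0.79 over the 6 arrays of 3 h flg22 (median 0.46, against 0.040). Over the 12 mock arrays it ran from -0.65 to 0.84 (median 0.40, against 0.10 for all probes), much as within 1 time of flg22. WRKY53 had 0.26 in mock, AT4G39670 0.16, AT5G52760 0.69 and WRKY22 -0.18. Correlating deviations from the group means, which removes genotype, treatment and time, gave a median of 0.48 for the 15 probes (from -0.55 to 0.81) and of 0.17 for all probes. The 15 were chosen over the same arrays, whose values include these deviations. Here and within mock or 1 time of flg22, a median above that of all probes is thus in part built in. WRKY53 then had 0.44, AT4G39670 0.25, AT5G52760 0.73 and WRKY22 -0.096. Of the next 6 named genes AT2G28400 had 0.37, AT1G05340 0.052, AT2G41410 0.78, AT4G27280 0.097, AT2G18210 0.037 and AT2G26190 0.64. The deviations of STZ and of the array median had an r of 0.41 over the 24 arrays, so they share variation of whole arrays, whose part in these values was not tested.

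**Figure D4:**
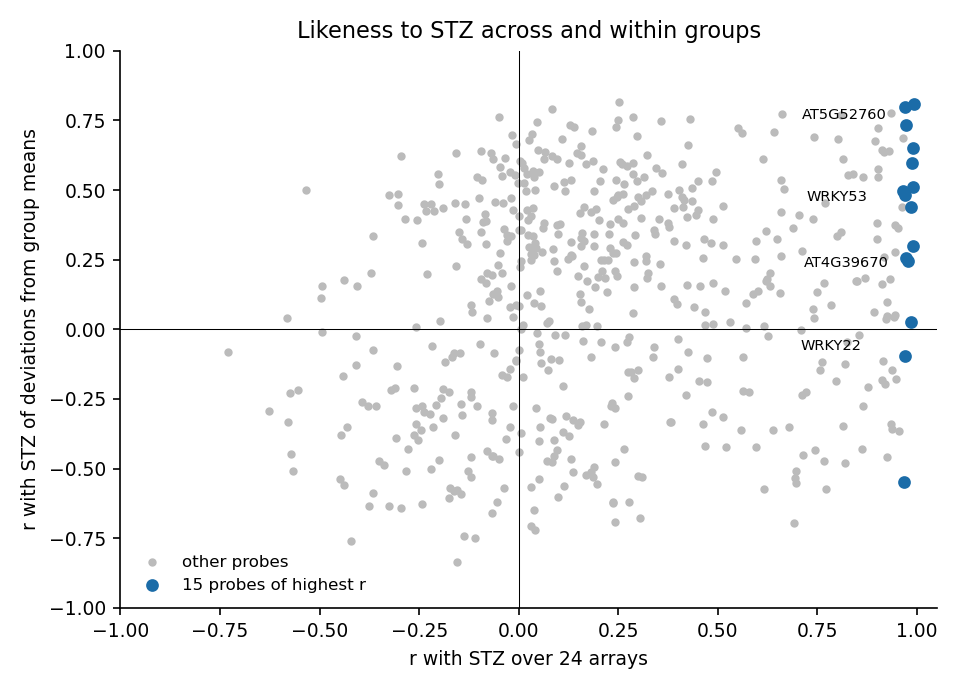
Likeness of each of the other 575 probes to STZ: Pearson's r over the 24 arrays (x axis) against r of the deviations from group means (y axis). Blue points are the 15 probes of highest r over the arrays, grey points the rest. The blue points all lie above 0.96 on the x axis but spread from -0.55 to 0.81 on the y axis.

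Lists of related genes were chosen with earlier results of these data known. STZ was the single member among 11 zinc-finger genes of its family with a named probe, and none of 9 MAP kinase cascade genes, 4 flagellin perception genes, 4 further early flagellin markers or 14 other rapid stress factors had one. Of 10 WRKY genes 4 were measured, and all 4 rose at both times in both genotypes, with medians of 2.20 and 2.23 in wild type at 30 min and 3 h, against 0.056 and 0.14 for all probes. Of all 576 probes 20.3% and 31.9% were called higher in wild type at 30 min and 3 h, and 20.5% and 34.4% in mpk11. After median centring WRKY29 in wild type (0.31) and WRKY6 in mpk11 (0.22) passed no longer at 30 min (limma adjusted p = 0.109 and 0.302), nor did WRKY6 in mpk11 without set 2 or set 3 (limma adjusted p = 0.0684 and 0.111). WRKY29 was the least like STZ among the WRKY genes (r = 0.468), with wild-type responses of 0.78 and 2.49. Of 9 calcium sensor genes 5 were measured. All 5 rose at 30 min and 4 at 3 h in both genotypes, with wild-type medians of 1.95 and 1.08, beside the same shares of all probes. The wild-type calls of AT2G41090 were lost after median centring (0.089 at 30 min and -0.016 at 3 h; limma adjusted p = 0.668 and 0.937) and without any of the 3 sets at 3 h (limma adjusted p from 0.0833 to 0.181). Its wild-type call at 30 min was also lost without set 1 or set 3 (limma adjusted p = 0.371 and 0.227). In mpk11 its calls (0.65 and 0.79) were likewise lost after median centring (limma adjusted p = 0.485 and 0.437), and that at 30 min without set 1 or set 3 (limma adjusted p = 0.157 and 0.165). AT5G39670 differed by 0.34 at 3 h in wild type without passing (limma adjusted p = 0.333).

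COR47, a dehydrin gene of the cold and drought response, was the single measured gene of 11 linked to STZ in abiotic stress. In wild type it differed by 0.22 at 30 min and by -0.44 at 3 h without passing (limma adjusted p = 0.741 and 0.134). In mpk11 it differed by 0.073 at 30 min without passing and fell by 0.57 at 3 h (limma adjusted p = 0.0436), a call lost without set 1 or set 3 (limma adjusted p = 0.0990 and 0.214). Under 7 other settings of the processing this mpk11 value at 3 h ran from -1.25 to -0.57. The call was lost in 1 of the 7 (limma adjusted p = 0.0589). After median centring the wild-type value at 30 min was -0.26, and that at 3 h, -0.97, passed (limma adjusted p = 0.00221). The wild-type value at 3 h also passed with set as a replicate block (limma adjusted p = 0.00184).

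Other genes responded more at 3 h, by value, than at 30 min. The chitinase genes AT2G43620 and AT4G01700, the proteinase inhibitor gene AT2G38870, the FAD-linked oxidoreductase gene AT1G26380 and the peroxidase gene AT5G64120 rose at both times in both genotypes, but the wild-type call of AT2G38870 at 30 min was lost after quantile normalization (0.34, limma adjusted p = 0.107). These 5 were picked with their values known, and 20.3% and 31.9% of all probes were called higher in wild type and 20.5% and 34.4% in mpk11. Responses of AT2G43620 were 1.48 and 5.35 in wild type, where STZ had 4.73 and 2.19. Over the 24 arrays r of these 5 genes with STZ lay between 0.423 and 0.615, and over the 12 flg22 arrays between -0.98 and -0.97. The latter is set by the choice of genes, since with flg22 STZ was higher at 30 min and these 5 at 3 h. Within the 6 arrays of 3 h flg22 r ran from -0.17 to 0.30, and within those of 30 min from -0.79 to -0.032. EXO, a gene linked to growth and brassinosteroids, had 2.40 at 30 min and 0.049 at 3 h in wild type (r with STZ 0.745), and its value at 3 h was -0.48 after median centring.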

How the data were processed

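The authors deposited 1 table of log values, here read as log2 given their range (0.450 to 11.4). Per the labels' protocols, total RNA was labelled with Alexa555, and poor spots were found with a Cy5-labelled oligonucleotide and removed. For background correction, normalization and log base, the sources used here give nothing. The table of 576 probes and 24 arrays had 0 missing values. The probe table named 181 probes, 180 of them matched by gene identifier to RefSeq names (TAIR10.1).

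The fit was made in limma 3.58.1 (R 4.3.3) with 8 group means over all arrays, no filter, no replicate block, and Benjamini-Hochberg adjustment over all probes within each comparison (threshold 0.05). Nothing says that sets were separate experiments, so p-values measure the spread between these arrays, which may be technical. STZ, the gene lists and the rule for named genes (the nearest 15 probes and 10 named probes, the 3 least like, and list members) were chosen with earlier results of these data known. Deviations from group means correlated with a median r of 0.336 between arrays of one set, and in 8 of the 12 comparisons of 2 groups every pair was over 0.1, so there the set numbers pair the arrays. Simulated data of 576 probes had 100 changed ones and noise drawn independently for each array. Changes of 0.5 and 1 log2 unit were recovered in 45.6% and 91.1% for the wild-type response at 30 min. For the genotype difference in mock at 30 min the shares were 44.9% and 91.7%. They were 20% and 72.1% for the change of the wild-type response between the times. In the real genotype comparison in mock at 30 min 0% of probes were called. The SD of STZ within groups was 0.264, against a median of 0.225 for all probes. A change of STZ alone may therefore be recovered less often than in the simulation. The closing section gives the alternatives.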

Additional observations from a re-analysis of the deposited data

Results flagged for a closer look

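The flg22 response of STZ differed between the times by the test of the difference itself. In wild type the response at 3 h less that at 30 min was -2.54 (limma adjusted p = 5.40e-07), negative in 3 of 3 sets. In mpk11 it was -2.45 (limma adjusted p = 8.83e-07), also negative in 3 of 3 sets. Groups of 3 arrays were too small for a check of single outlying arrays.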

How the results depend on the processing

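The 4 flg22 responses of STZ, their 2 changes between the times and the 2 falls with flg22 kept direction and call under median centring, quantile normalization, another prior (trended, robust), a replicate block by set (fixed or random), a fit of the compared groups alone, and without each array or set. A filter that kept the 432 probes of highest mean kept STZ and cannot move its differences, so it tests only the adjustment. The wild-type rise ran from 4.26 to 4.91 at 30 min and from 1.66 to 2.27 at 3 h. The fixed replicate block by set ended or made no limma call of STZ and left the difference over all conditions at -0.17 (limma adjusted p = 0.358). For that difference the exact sign-flip test over same-set pairs, -0.17 with p = 0.0361, is not adjusted over probes and treats the pairs as independent. Run on all probes, an addition made after seeing the data, it gave 0 probes past the threshold (76 with an unadjusted exact p under 0.05).

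None of the genotype differences passed in limma, and some changed sign. With flg22 at 3 h the difference was 0.00097 after quantile normalization and ran from -0.21 to 0.17 without single arrays or sets. With flg22 at 30 min it ran from -0.30 to 0.092, the interaction at 30 min from -0.035 to 0.36, and the time change in mock from -0.015 to 0.21 in wild type and from -0.065 to 0.27 in mpk11.

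COR47 at 30 min turned to -0.26 in wild type and -0.43 in mpk11 with median centring and to -0.45 and -0.53 with quantile normalization. AT2G41090 turned to -0.016 at 3 h in wild type with median centring, and with quantile normalization to -0.21 there and to -0.0013 and -0.022 in mpk11 at 30 min and 3 h. AT5G39670 at 3 h turned to -0.19 and -0.28 in wild type and mpk11 with median centring. The alternatives for these listed genes were added after seeing the data.

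Probes called for flg22 numbered 118 and 221 in wild type and 127 and 235 in mpk11 (30 min and 3 h), against 340, 379, 353 and 403 after median centring, and 249 and 267 at 30 min after quantile normalization. Median centring shifted the median change of all probes at 30 min in wild type from 0.056 to -0.42. Of the 15 probes most like STZ, 9 were kept with Spearman's rho, 5 within flg22 arrays, 2 within mock arrays, 3 with deviations from group means, and 12 to 15 over the 8 group means, after either scaling, and without a set or the 2 arrays farthest from the STZ median. Within the 6 arrays of 30 min flg22 2 were kept and within those of 3 h flg22 0, both added after seeing the data. The number of arrays limits the precision, and signal over background is unknown.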
